A study of Mus musculus with 12 samples.

Results

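The AP-1 and EGR immediate early genes Fos, Fosb, Fosl1, Fosl2, Jun, Junb, Jund, Egr1, Egr2 and Egr3 were followed across 12 RNA-seq libraries of H9c2 cells, and these 10 genes were picked by symbol from the 54345 genes in the expression table. They were proposed with their levels in these libraries already known, so the group differences below are a description and no test was run on them. H9c2 is a heart-derived myoblast line, which the sequencing labels list as mouse and the study describes as a rat line; the genes carry mouse identifiers and GRCm38 positions. Each of 4 groups had 3 libraries after 6 h of treatment: untreated wild-type cells (Unt), cells given the anthracycline doxorubicin (DOX), cells given doxorubicin with the iron chelator dexrazoxane (D_DXZ), and cells given doxorubicin with magnesium hexacyanoferrate nanocatalysts (D_MgHCF). No group had dexrazoxane or MgHCF without doxorubicin, the doses for the sequenced cells were not given in the sources used here, and the cells of all groups had attached and been rinsed in cold buffer before treatment. Nothing in the labels says that the 3 libraries of a group came from separate cultures, so their spread may be technical.

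AP-1 is a dimer of leucine zipper proteins in which a FOS protein (Fos, Fosb, Fosl1, Fosl2) pairs with a JUN protein (Jun, Junb, Jund), while JUN proteins can also pair with each other. EGR proteins are zinc finger factors that bind GC-rich sites. Both families belong to the immediate early genes, which growth factors, stress kinases and calcium switch on without new protein synthesis through serum response factor (SRF), its ternary complex partners and CREB, and whose mRNAs are mostly short-lived.

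Promoters of 7 members were found in the RefSeq table for GRCm38.p6 (250 bases before to 50 after each start), and Fosl1, Egr1 and Egr3 had no entry. Stretches of 150 bases before the start are shown 5′ to 3′ for Fos, Fosb and Jun, whose levels differed among the groups, and for Egr2, which was listed at 0; capitals mark a match to 1 of 6 motifs searched on both strands.
Fos, chr12:85473740-85473889, plus strand: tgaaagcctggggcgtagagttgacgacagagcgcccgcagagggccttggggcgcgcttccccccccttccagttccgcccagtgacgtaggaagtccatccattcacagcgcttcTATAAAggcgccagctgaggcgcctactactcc
Fosb, chr7:19310046-19310195, minus strand: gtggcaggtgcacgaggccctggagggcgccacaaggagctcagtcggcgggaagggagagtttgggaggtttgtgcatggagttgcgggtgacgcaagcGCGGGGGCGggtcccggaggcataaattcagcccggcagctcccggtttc
Jun, chr4:95052223-95052372, minus strand: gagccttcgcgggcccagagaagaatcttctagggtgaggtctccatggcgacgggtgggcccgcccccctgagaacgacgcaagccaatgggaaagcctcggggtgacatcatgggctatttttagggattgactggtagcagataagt
Egr2, chr10:67537719-67537868, plus strand: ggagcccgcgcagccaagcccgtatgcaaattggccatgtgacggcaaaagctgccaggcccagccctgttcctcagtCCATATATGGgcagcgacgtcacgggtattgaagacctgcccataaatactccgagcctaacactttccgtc

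The motif TATAAA began 33 bases before the Fos start and was held by 13.6% of 32851 promoters of that length. The EGR-type motif GCGGGGGCG began 50 bases before the Fosb start and also 79 bases before the Fosl2 start, against 2.91% of all promoters. The CArG box, the element that SRF binds, occurred in 4 of the 5 Egr2 promoters listed and in 1.63% of all promoters. Of these Egr2 windows, those starting at chr10:67537619, 67537620 and 67537680 overlap and hold the same CArG box. The window at chr10:67537316-67537615 ends before them and holds another. The AP-1 motif TGACTCA (5.20% of promoters), the CREB motif TGACGTCA (1.79%) and the EGR motif GCGTGGGCG (0.612%) were not in these windows of any member. None of the 6 was in the windows of Jun and Jund. Only full matches were counted, so near matches and sites outside these windows would be missed. These matches describe letters and no binding was measured.

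Libraries held 16626514 to 19365119 reads on genes, and the deposited FPKM (fragments per kilobase of transcript, scaled to library size) carried a scaling that set the median gene nearly equal between groups. Rescaling every library to TPM moved the median of 12434 genes from 0.02 to −1.18 on the log2 scale for DOX against Unt and from −0.02 to 1.02 for D_MgHCF against DOX, and scaling by summed reads moved them to −0.68 and 0.67. Every difference below is therefore relative to the median gene. The regulators of the labelled myoblast type (Myod1, Myog, Myf5, Myf6) and its receptor subunit Chrna1 were under 1 FPKM in every library, and the last gene of that list, the filament gene Des, was 1.36 to 1.57 FPKM in Unt, 1.24 in D_MgHCF replicate 3 and under 1 elsewhere. Also under 1 FPKM in every library were all 7 cardiomyocyte and all 5 endothelial markers and 4 of the 5 macrophage markers, Cd68 being the exception. Of the 6 fibroblast markers Pdgfra, Dcn and Lum were under 1 FPKM throughout and the other 3, all collagens, set the list's sum, which was 60.9 to 66.6 FPKM in the Unt libraries and 140.2 to 177.2 with DOX, while D_DXZ held 108.4 to 151.7 and D_MgHCF 30.4 to 63.8; its part in the results was not tested. Cells lost, other cells gained and less RNA per cell cannot be told apart in bulk RNA. The D_MgHCF libraries were the least alike. Over 25044 genes, D_MgHCF replicate 3 had a mean Pearson r of 0.953 with the other libraries of its group, D_MgHCF replicate 1 had 0.963 and replicate 2 had 0.974, while the 9 libraries of the other groups had 0.990 to 0.995. Over the 9 members with reads, the root mean square difference from the other libraries of the group was 1.60 in log2(FPKM + 1) for D_MgHCF replicate 3, 1.05 for replicate 1 and at most 0.60 elsewhere, so values are also given without replicate 3.

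**Figure D1:**
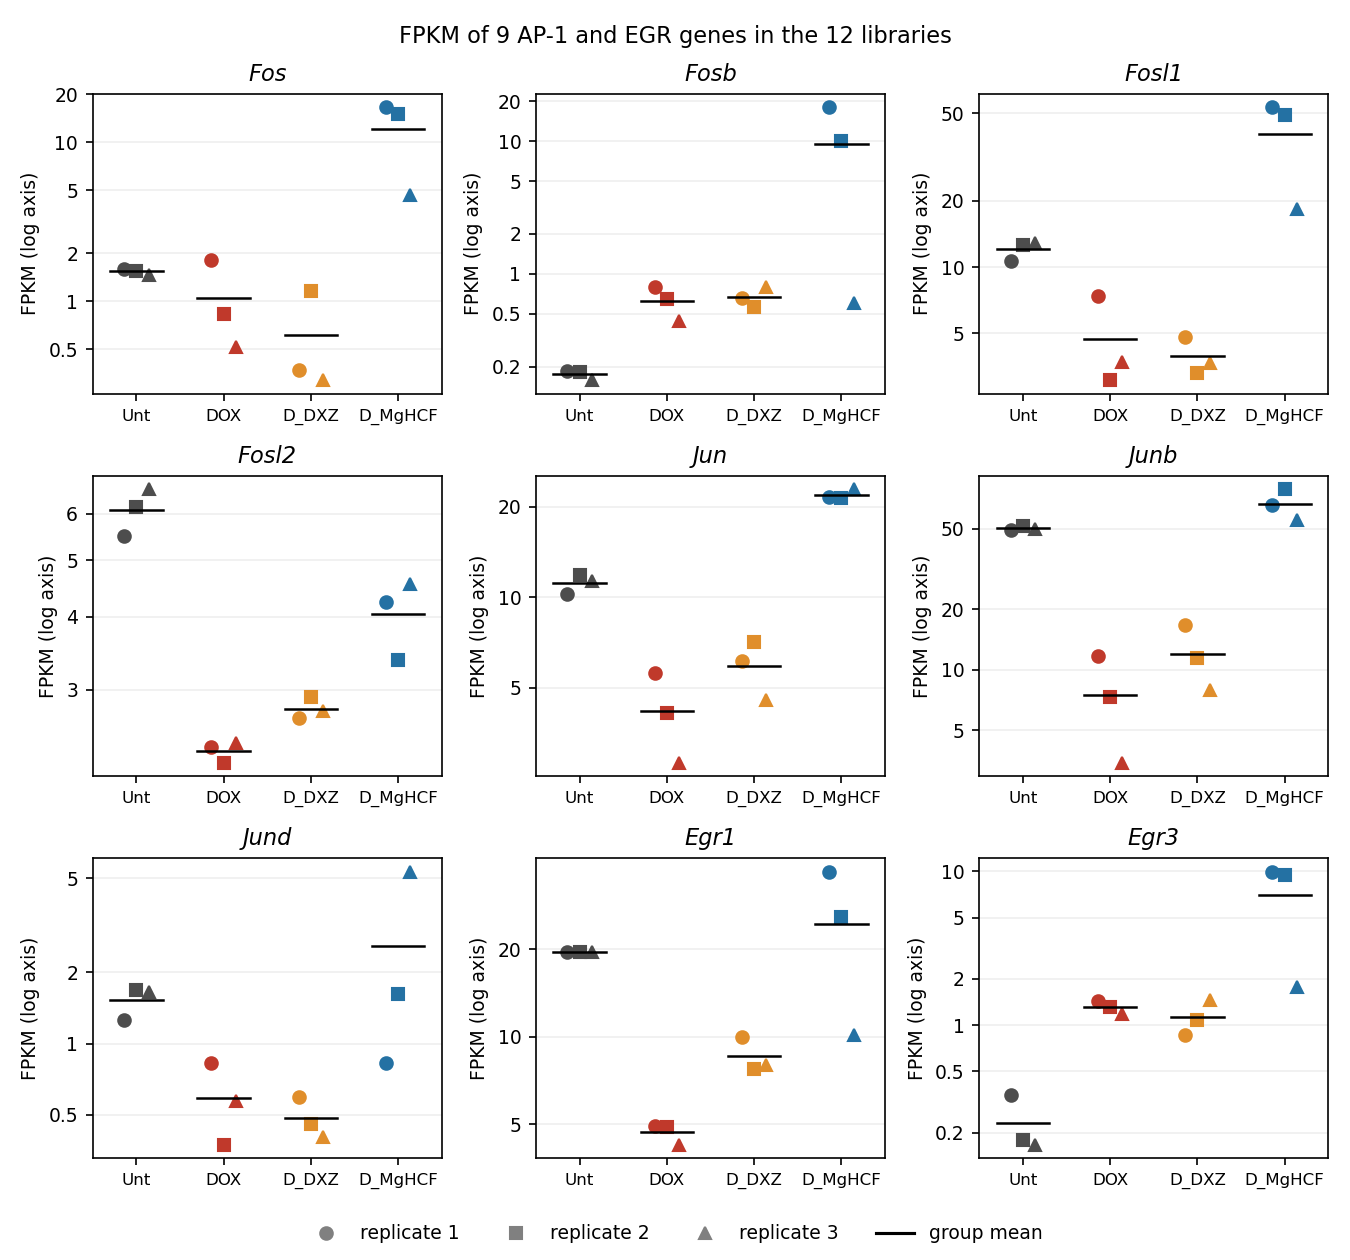
FPKM of the 9 members with reads, on a log axis of its own range for each gene, in the 12 libraries; symbols stand for replicates and bars for group means (n = 3). The D_MgHCF mean is the highest of the 4 for every gene but Fosl2, and D_MgHCF replicate 3 (triangle) lies far below the other two for Fos, Fosb, Fosl1, Egr1 and Egr3 but above them for Jund.

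In untreated cells the FPKM of the members differed widely. On the FPKM scale, which is per length, Junb was highest at 50.4 ± 1.43 (SD, n = 3), followed by Egr1 at 19.6 ± 0.0749, Fosl1 at 12.0 ± 1.16 and Jun at 11.2 ± 0.812, with Fosl2 at 6.09 ± 0.556. Fos (1.54 ± 0.0737) and Jund (1.53 ± 0.230) were low, and Egr3 (0.233 ± 0.103) and Fosb (0.174 ± 0.0147) were lower still, with 18 to 39 reads a library. The libraries of neighbours in this order overlapped for Fosl1 and Jun, for Fos and Jund and for Egr3 and Fosb, and the other neighbours were apart. Egr2 (chr10:67535475-67542188), an EGR factor known from hindbrain and Schwann cells, was listed at 0 in all 12 libraries, and a count of 0 allows up to 3 reads in each by counting error alone. Whether reads of a rat line fail to map to this mouse gene was not tested. Nor was it tested whether they map equally well to each member, so the order of members by FPKM may differ from that of their mRNA.

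Fos (chr12:85473890-85477273), the founding member and a strong activator, stood at 1.61, 1.56 and 1.46 FPKM in Unt, 1.82, 0.828 and 0.515 in DOX, 0.369, 1.17 and 0.318 in D_DXZ and 16.6, 15.03 and 4.69 in D_MgHCF. All 3 D_MgHCF libraries were above every other library, DOX overlapped Unt, and D_DXZ was below Unt but overlapped DOX. The D_MgHCF mean was 11.5 times that of DOX, or 15.02 times without D_MgHCF replicate 3. The difference was 2.56 ± 0.41 in log2(FPKM + 1), where the error is the limma standard error. That error is pooled over all 4 groups, so it is the same in every comparison of a gene. It therefore includes the spread of D_MgHCF also where D_MgHCF is not compared. Reads on Fos were few outside D_MgHCF: the Unt libraries held 84 to 95, those of DOX 14 to 65 and those of D_DXZ 10 to 36, against 271 to 900 for D_MgHCF.

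Fosb (chr7:19302696-19310051), whose truncated form accumulates after repeated stimulation, was the member with the widest range inside a group, as highest over lowest library. It read 0.185, 0.180 and 0.157 FPKM in Unt, 0.791, 0.649 and 0.443 in DOX, 0.655, 0.562 and 0.792 in D_DXZ, and 18.02, 9.96 and 0.607 in D_MgHCF. Every doxorubicin-treated library was above every Unt library, but D_MgHCF replicate 3 lay within the DOX range while the other two were 28.7 and 15.9 times the DOX mean. The D_MgHCF values of this gene spanned a 29.7-fold range, the difference from DOX was 2.10 ± 0.69 in log2(FPKM + 1), and it was 3.15 without replicate 3.

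Fosl1 (FRA-1, chr19:5447703-5455945), a FOS protein without the strong activation domain of Fos, had the highest FPKM of the FOS genes in Unt. Its Unt libraries read 10.7, 12.6 and 12.8 FPKM. It read 7.37, 3.06 and 3.70 in DOX, 4.79, 3.31 and 3.68 in D_DXZ, and 53.2, 48.8 and 18.3 in D_MgHCF. DOX and D_DXZ overlapped each other and lay below Unt, and D_MgHCF lay above Unt in all 3 libraries. The differences were −1.26 ± 0.38 for DOX against Unt and 2.78 ± 0.38 for D_MgHCF against DOX in log2(FPKM + 1). A transcript of Ccdc85b in GENCODE M21 runs through 1056 bases of Fosl1 on the other strand, the kit is not stated to keep strand, and Ccdc85b averaged 77.6 ± 8.97 FPKM in Unt, 47.0 ± 7.27 in DOX, 39.5 ± 3.94 in D_DXZ and 146.5 ± 14.9 in D_MgHCF (SD, n = 3), so reads of both genes cannot be told apart where they overlap; in the deposited table Ccdc85b has a shorter span that does not reach Fosl1.

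Fosl2 (FRA-2; chr5:32135801-32157842) was the member with reads whose highest group was Unt. Its FPKM was 5.50, 6.16 and 6.60 in Unt, 2.40, 2.25 and 2.44 in DOX, 2.69, 2.92 and 2.76 in D_DXZ and 4.24, 3.37 and 4.55 in D_MgHCF. The 4 groups did not overlap and were ordered Unt, D_MgHCF, D_DXZ, DOX, with 273 or more reads in every library. Under quantile normalization the Unt libraries stayed above all others, but DOX, D_DXZ and D_MgHCF overlapped one another. D_MgHCF was 0.58 ± 0.11 above DOX and 0.49 below Unt (−0.49 ± 0.11) in log2(FPKM + 1), so that this gene was the only one of the 9 whose D_MgHCF libraries were all below Unt.

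Among the JUN genes, Junb and Jun lay below Unt in every DOX and D_DXZ library and above it in every D_MgHCF library. Junb (chr8:84974484-84978718), a JUN protein often opposed to Jun in growth control, read 49.2, 52.0 and 49.9 FPKM in Unt, 11.7, 7.32 and 3.46 in DOX, 16.7, 11.4 and 7.94 in D_DXZ and 65.5, 78.6 and 55.6 in D_MgHCF. DOX overlapped D_DXZ, and replicate 3 was the lowest library of each treated group. The Unt mean was 6.73 times the DOX mean (difference −2.72 ± 0.34 in log2(FPKM + 1)), the widest gap of any member between those groups, and D_MgHCF was 3.11 ± 0.34 above DOX. Prdx2, a peroxiredoxin gene on the other strand, shares 176 bases with a Junb transcript. It averaged 77.6 ± 6.55 FPKM in Unt, 386.9 ± 39.7 in DOX, 311.2 ± 50.4 in D_DXZ and 180.3 ± 29.4 in D_MgHCF. It moved opposite to Junb for DOX against Unt and for D_MgHCF against DOX, but both genes were higher in D_MgHCF than in Unt. The kit is not stated to keep strand, so reads of both genes cannot be told apart where they overlap.

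Jun (chr4:95049034-95052222), the main partner of Fos and a substrate of JNK, was the member most alike across the D_MgHCF libraries. Its FPKM was 10.3, 11.8 and 11.4 in Unt, 5.60, 4.13 and 2.82 in DOX, 6.12, 7.11 and 4.56 in D_DXZ and 21.5, 21.3 and 22.9 in D_MgHCF. DOX and D_DXZ overlapped each other below Unt, and D_MgHCF lay above Unt with a coefficient of variation of 3.82%, against 53.5% for Fos and 91.4% for Fosb. D_MgHCF was 2.18 ± 0.19 above DOX, 2.15 without replicate 3, and 0.92 ± 0.19 above Unt in log2(FPKM + 1). The antisense gene Junos overlapping Jun held at most 53 reads in any library.

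Jund (chr8:70698949-70700616), the JUN gene usually expressed at steady levels, was low throughout, with 8 to 218 reads a library. It read 1.26, 1.68 and 1.64 FPKM in Unt, 0.829, 0.374 and 0.570 in DOX, 0.594, 0.457 and 0.404 in D_DXZ, and 0.828, 1.62 and 5.32 in D_MgHCF. Unt lay above DOX and D_DXZ, whereas D_MgHCF overlapped DOX and Unt, and here replicate 3 was the highest library. The D_MgHCF difference from Unt was 0.31 ± 0.36 in log2(FPKM + 1) with all 3 libraries and −0.20 without replicate 3.

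Egr1 was the EGR gene with the most reads, and the levels in its 3 Unt libraries were almost equal. Its FPKM was 19.5, 19.7 and 19.5 in Unt, 4.92, 4.87 and 4.24 in DOX, 9.96, 7.74 and 7.98 in D_DXZ and 37.1, 25.9 and 10.1 in D_MgHCF. The D_DXZ libraries lay between Unt and DOX without overlapping either, while D_MgHCF was above DOX and D_DXZ and overlapped Unt, with replicate 3 below Unt and the others above it. The differences in log2(FPKM + 1) were −1.86 ± 0.35 for DOX against Unt, 0.75 ± 0.35 for D_DXZ against DOX and 1.99 ± 0.35 for D_MgHCF against DOX. The pooled error hides unlike spreads, with an SD of 0.0749 FPKM in Unt, 0.378 in DOX, 1.22 in D_DXZ and 13.6 in D_MgHCF. Against Unt the D_MgHCF difference was 0.13 ± 0.35, which was 0.64 without replicate 3 and −0.02 under TPM.

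Egr3 (chr14:70077203-70082614), an EGR gene that EGR1 itself can switch on, lay above Unt in every treated library, as Fosb did. It read 0.352, 0.180 and 0.167 FPKM in Unt, 1.44, 1.31 and 1.18 in DOX, 0.858, 1.07 and 1.46 in D_DXZ and 9.94, 9.38 and 1.76 in D_MgHCF. D_DXZ overlapped DOX, and the D_MgHCF libraries were above all others, with replicate 3 again closest to DOX. The difference was 0.91 ± 0.43 for DOX against Unt and 1.56 ± 0.43 for D_MgHCF against DOX in log2(FPKM + 1), a scale that understates changes of genes this low.

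**Figure D2:**
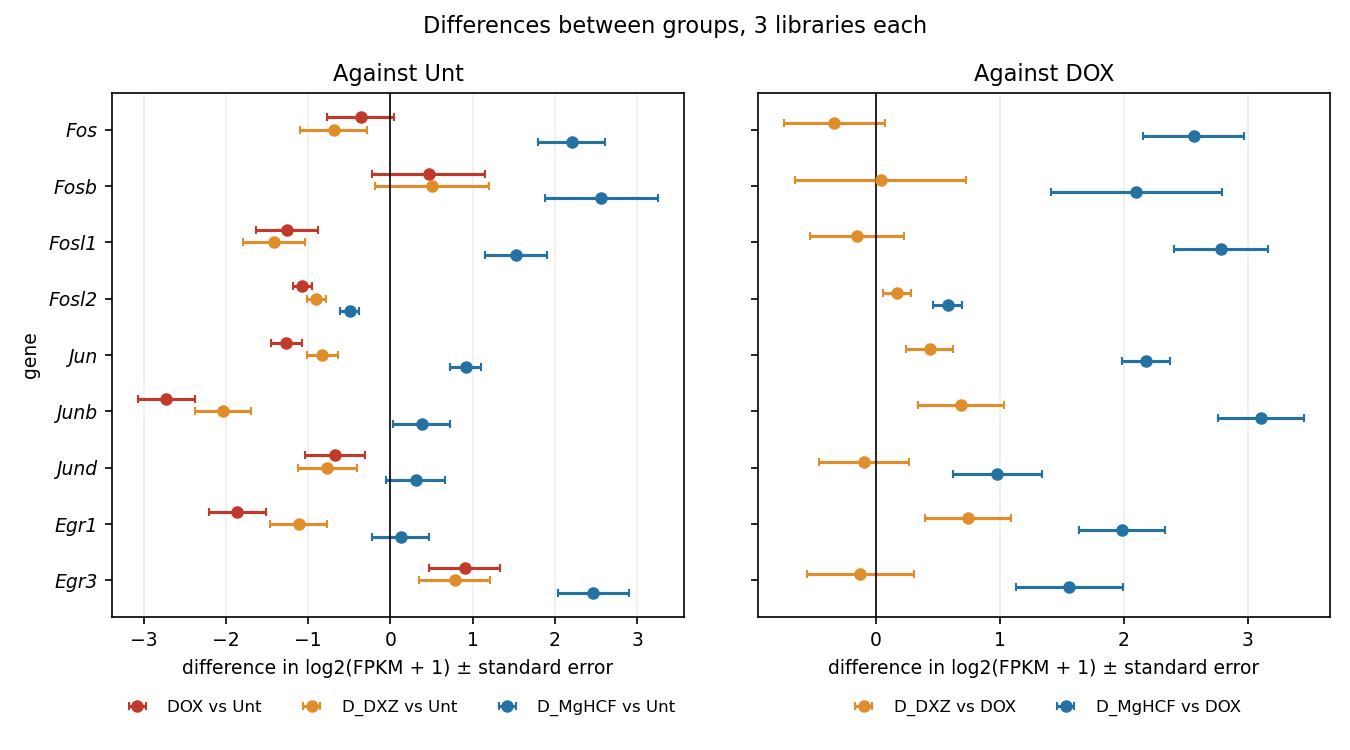
Difference in log2(FPKM + 1) between groups for the 9 members with reads (points) with the limma standard error (bars), against Unt on the left and against DOX on the right, n = 3 libraries a group. The error of a gene is pooled over all 4 groups. Against DOX, all 9 D_MgHCF points lie above 0, from 0.58 for Fosl2 to 3.11 for Junb. The D_DXZ points lie between −0.33 and 0.75.

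Counted over the 9 members with reads, the DOX libraries lay all below Unt for Fosl1, Fosl2, Jun, Junb, Jund and Egr1, 6 genes, where 26.6% of all 25044 genes with FPKM above 0 in 3 or more libraries did so. They lay all above Unt for Fosb and Egr3, 2 genes against 25.3% of all genes. Under TPM the members above Unt were 1, Egr3, and Fos joined those below. The members were chosen with this contrast known, so nothing is read from these counts.

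Dexrazoxane and MgHCF shared the DOX libraries as their control and are set side by side. The D_DXZ libraries were all above DOX for 2 members, Fosl2 and Egr1 (background 7.66%), and all below for 0 (8.64%). Without DOX replicate 1, the highest DOX library for 8 of the 9 members, Jun and Junb joined and made 4, and Fos was below DOX without D_DXZ replicate 2 and Egr3 without D_DXZ replicate 3. The D_MgHCF libraries were all above DOX for 7 members, all but Fosb and Jund (background 32.5%), and below for 0 (20.7%). This count was 5 under quantile normalization, 9 under TPM and 8 without D_MgHCF replicate 3, and no alternative scaling turned the direction of any of the 9 differences.

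Both additions to doxorubicin were also set against untreated cells. The D_DXZ libraries were all below Unt for 7 members (background 26.9%) and above for 2, Fosb and Egr3 (23.5%). The D_MgHCF libraries were all above Unt for 6, Fos, Fosb, Fosl1, Jun, Junb and Egr3 (29.6%), and below for 1, Fosl2 (19.3%). Under TPM Junb left those above, which made 5, and without D_MgHCF replicate 3 Egr1 joined them, which made 7. Set directly against D_DXZ, the D_MgHCF libraries were all above for 8 members, all but Fosb (30.6%), and below for 0 (19.8%), and the 8 became 4 under quantile normalization, Fos, Fosl1, Jun and Junb.

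**Figure D3:**
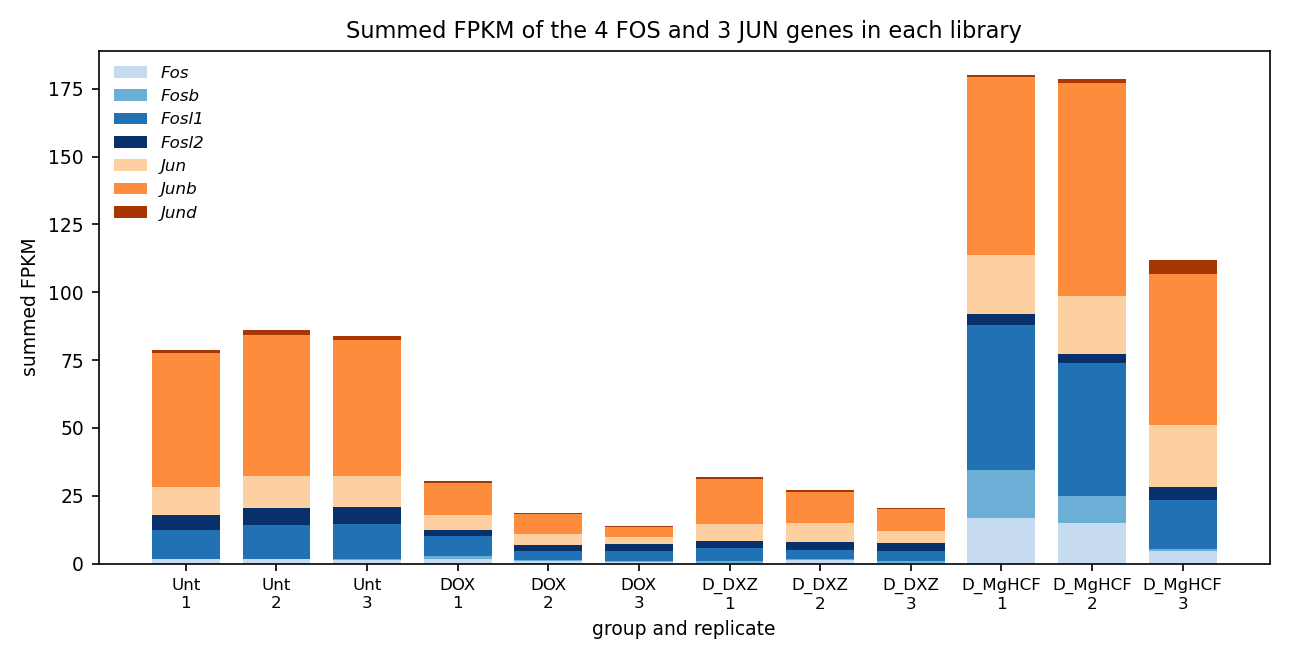
Summed FPKM of the 4 FOS genes (blue shades) and 3 JUN genes (orange shades) in each library, stacked by gene from a baseline of 0. The sum lay between 78.8 and 86.0 in Unt, 13.9 and 30.5 in DOX, 20.5 and 31.9 in D_DXZ and 111.9 and 180.0 in D_MgHCF, with Junb the largest block in 11 of 12 libraries.

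The make-up of the AP-1 mRNA pool also differed among groups. Summed over the 7 genes, FPKM was 82.9 ± 3.74 in Unt, 21.01 ± 8.53 in DOX, 26.4 ± 5.73 in D_DXZ and 156.9 ± 39.0 in D_MgHCF (SD, n = 3), as the plot of summed FPKM by library shows. JUN genes gave 76.1 ± 1.10% of the sum in Unt, 57.3 ± 7.42% in DOX, 69.0 ± 5.30% in D_DXZ and 60.2 ± 13.3% in D_MgHCF. Junb alone gave 60.8 ± 1.56% in Unt and 34.1 ± 8.11% in DOX, and those libraries did not overlap. In D_MgHCF the FOS share was 51.2% and 43.2% in replicates 1 and 2 but 25.2% in replicate 3, near the 22.9 to 25.1% of Unt. These are shares of FPKM, and how evenly reads of a rat line map to these mouse genes was not tested. Protein was not measured.

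The rest of the network was described by 86 genes in 8 lists, of which 84 could be tested with limma on log2(FPKM + 1), adjusted by Benjamini-Hochberg over 25044 genes. These lists were chosen with earlier results of these data known. Their p-values and their shares beside all genes are therefore a description and not independent evidence. In DOX against Unt, 18 rose (21.4%, against 18.6% of all genes) and 31 fell (36.9%, against 19.9%). In D_MgHCF against DOX, 46 rose (54.8%, against 31.4%) and 17 fell (20.2%, against 20.1%). The same shares of all genes stand beside the counts of each list below. The median difference in log2(FPKM + 1) over the 84 genes was −0.21 in the first comparison and 0.61 in the second, beside 0.00 and 0.07 over all genes tested. Under TPM the first comparison gave 7 and 58 genes in place of 18 and 31, and the second gave 7 falls in place of 17, so the split between rises and falls depended on the scaling.

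**Figure D4:**
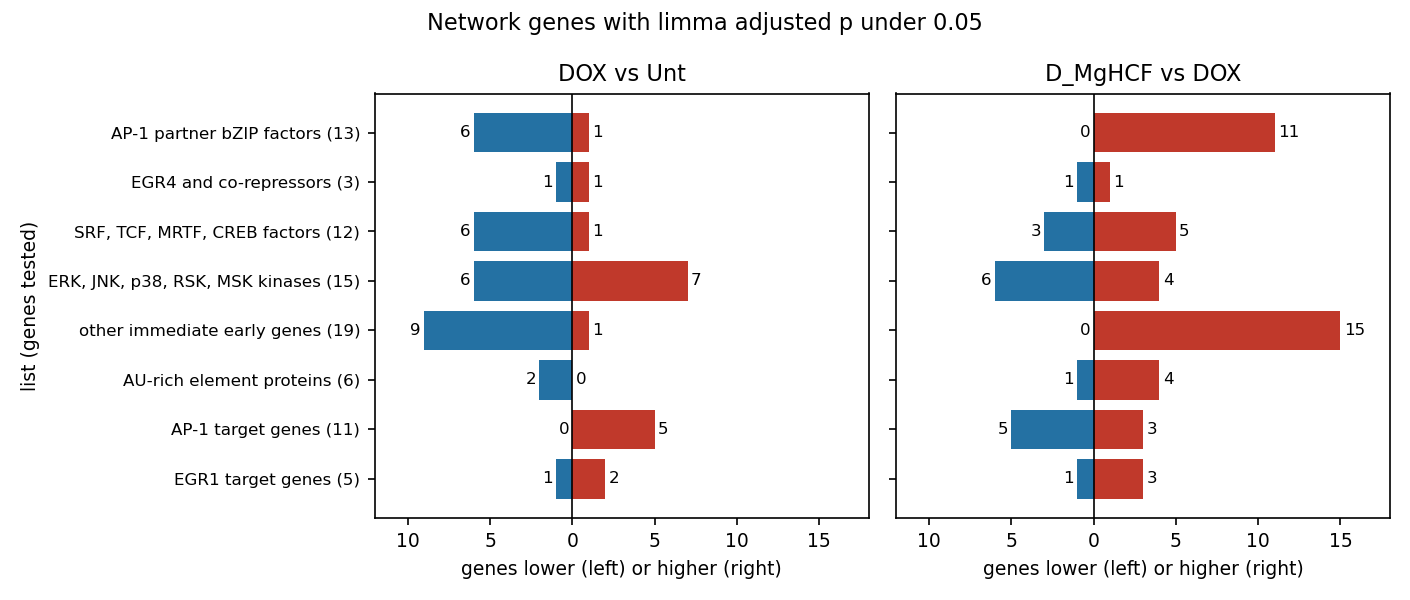
Number of genes in each of 8 network lists that were lower (left, blue) or higher (right, red) with a limma adjusted p under 0.05, for DOX against Unt and D_MgHCF against DOX; the genes tested stand in brackets. Other immediate early genes were lower for 9 of 19 and higher for 15 of 19 in the 2 comparisons, and AP-1 partners lower for 6 of 13 and higher for 11 of 13. The lists were chosen with earlier results of these data known.

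Of the other immediate early genes, 9 of 19 fell and 1 rose with DOX, and 15 rose and 0 fell with D_MgHCF against DOX, or 19 rose without D_MgHCF replicate 3. Cyr61 (now Ccn1), a matricellular protein, was 70.9, 74.8 and 79.4 FPKM in Unt and 8.32, 3.55 and 3.47 in DOX (log2 difference −3.73 ± 0.37, limma adjusted p = 2.79e-05). Ier2, a small nuclear protein, fell by 3.36 and Rhob, an endosomal GTPase, by 3.44 on the log2 scale (limma adjusted p = 1.65e-05 and 0.000594). With D_MgHCF the antiproliferative Btg2 stood at 26.2, 48.3 and 52.1 FPKM against 8.48, 3.38 and 1.73 in DOX (difference 3.10 ± 0.40, limma adjusted p = 0.000122), and here replicate 3 was not the lowest. Ier3 was 57.2, 53.4 and 12.3 FPKM in D_MgHCF against 2.89 to 4.14 in DOX (3.02 ± 0.46, limma adjusted p = 0.000338), and Ier5 was 2.69 ± 0.38 higher (limma adjusted p = 0.000186). Arc, known from neurons, rose by 0.57 ± 0.18 with DOX (limma adjusted p = 0.0261), and the difference was −0.030 under TPM.

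Of 13 factors that pair or compete with AP-1 proteins, 1 rose and 6 fell with DOX, and 11 rose and 0 fell with D_MgHCF against DOX. Jdp2, a repressor that pairs with JUN, fell from 33.1, 37.2 and 39.5 FPKM in Unt to 6.90, 4.21 and 4.51 in DOX (−2.62 ± 0.33, limma adjusted p = 0.000118) and was 9.02, 12.3 and 25.9 in D_MgHCF. Atf3, a stress-induced bZIP factor, fell from 13.99 to 3.496 FPKM with DOX (limma adjusted p = 0.000906) and averaged 26.4 in D_MgHCF (2.69 ± 0.32 above DOX, limma adjusted p = 6.96e-05). The small MAF proteins, which lack an activation domain, were not alike: Maff rose with DOX by 1.32 ± 0.24 (limma adjusted p = 0.00134; the difference was 0.091 under TPM), whereas Mafg fell by 1.42 (limma adjusted p = 6.24e-05). Mafk rose with D_MgHCF against DOX by 2.33 ± 0.22 (limma adjusted p = 1.61e-05).

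The EGR co-repressors Nab1 and Nab2, which bind EGR proteins and limit them, went opposite ways. Nab2, itself an EGR target, was 9.96, 11.5 and 10.99 FPKM in Unt, 1.90, 1.17 and 1.59 in DOX and 7.38, 5.92 and 5.78 in D_MgHCF (−2.22 ± 0.20 with DOX, limma adjusted p = 1.72e-05, and 1.53 ± 0.20 with D_MgHCF, limma adjusted p = 0.000115). Nab1 rose with DOX by 0.64 ± 0.10 and fell by 0.95 with D_MgHCF (limma adjusted p = 0.000605 and 4.24e-05), but under TPM these were −0.68 and 0.21.

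Factors that bind the promoters of immediate early genes gave 1 rise and 6 falls of 12 with DOX. The SRF cofactors Mkl1 (now Mrtfa) and Mkl2 (Mrtfb), which carry actin signals to SRF, fell by 1.497 and 1.531 on the log2 scale (limma adjusted p = 0.00462 and 0.000432), and the CREB relative Atf1 by 1.32 (limma adjusted p = 0.00400). The ternary complex repressor Elk3 rose with DOX by 0.54 ± 0.10 (limma adjusted p = 0.00129; the difference was −0.77 under TPM) and fell by 1.27 with D_MgHCF against DOX (limma adjusted p = 7.20e-06), where the difference under TPM was −0.18 (limma adjusted p = 0.138). With D_MgHCF against DOX 5 rose and 3 fell: Srf itself was 53.3, 48.4 and 32.0 FPKM against 25.2, 26.3 and 26.4 in DOX (0.73 ± 0.16, limma adjusted p = 0.00369), the CREB coactivator Crtc3 rose by 1.04 ± 0.19 (limma adjusted p = 0.00117), and its relative Crtc1 fell by 0.78 (limma adjusted p = 0.00113; the difference was 0.039 under TPM).

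Kinases upstream of the members changed in both directions, 7 up and 6 down of 15 with DOX and 4 up and 6 down with D_MgHCF against DOX. Over all genes tested, 18.6% rose and 19.9% fell with DOX, and 31.4% rose and 20.1% fell with D_MgHCF against DOX. Mapk3 (ERK1) rose from 68.0, 68.0 and 72.8 FPKM in Unt to 239, 319 and 317 in DOX (2.04 ± 0.25, limma adjusted p = 8.63e-05) and was 91.1, 56.1 and 41.9 in D_MgHCF (−2.25 ± 0.25 against DOX, limma adjusted p = 4.18e-05). Its DOX difference was 0.69 under TPM and 0.51 under quantile normalization, where it did not pass the test (limma adjusted p = 0.0685), and its D_MgHCF difference was −1.05 and −0.91. Rps6ka4 (MSK2) rose and fell by similar amounts, 2.01 ± 0.20 and −2.07 ± 0.20 (limma adjusted p = 2.75e-05 and 2.01e-05), which were 0.69 and −0.89 under TPM. Mapk14 (p38α), a stress kinase, was 26.2, 24.5 and 27.1 FPKM in Unt, 17.0, 12.0 and 9.57 in DOX and 46.6, 47.1 and 46.3 in D_MgHCF (−0.99 ± 0.16 and 1.82 ± 0.16, limma adjusted p = 0.000441 and 1.07e-05). Map2k4, which activates JNK and p38, fell by 1.32 with DOX and rose by 1.79 ± 0.18 with D_MgHCF (limma adjusted p = 0.000169 and 2.36e-05), while Map2k7 fell by 1.49 with DOX (limma adjusted p = 0.000172). The JNK1 gene Mapk8 fell by 1.33 with D_MgHCF against DOX (limma adjusted p = 3.23e-05). These are mRNA levels and say nothing of phosphorylation.

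Proteins that bind AU-rich elements in short-lived mRNAs gave 2 falls and 0 rises of 6 with DOX, and 4 rises and 1 fall with D_MgHCF against DOX. The decay factors Zfp36, Zfp36l1 and Zfp36l2 rose with D_MgHCF by 2.04 ± 0.17, 1.72 ± 0.33 and 2.00 ± 0.32 (limma adjusted p = 1.05e-05, 0.00163 and 0.000443). Zfp36 read 2.11, 2.03 and 1.97 FPKM in Unt, 1.84, 1.82 and 1.07 in DOX and 11.5, 9.46 and 7.81 in D_MgHCF. With DOX, Zfp36l2 fell by 2.44 (limma adjusted p = 0.000135) and Khsrp, another decay factor, by 1.14 (limma adjusted p = 4.19e-05). Hnrnpd (AUF1) fell with D_MgHCF against DOX by 2.26 (limma adjusted p = 7.02e-05), from 15.3, 18.7 and 21.1 FPKM to 2.01, 2.14 and 5.91. In the gene models of GENCODE M21, the pentamer ATTTA occurred per kilobase of 3′ untranslated region 4.91 times in Fos, 4.12 in Junb, 3.24 in Jun, 2.65 in Egr3, 2.50 in Egr2, 1.88 in Jund, 1.72 in Fosl2, 1.64 in Egr1, 1.57 in Fosl1 and 0.466 in Fosb, beside a median of 1.21 over 14607 coding genes.

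Of 11 tested genes known as AP-1 targets, 5 rose (Timp1, Ccnd1, Spp1, Cd44 and Hmga1) and 0 fell with DOX, and those 5 fell and 3 rose with D_MgHCF against DOX. Cyclin D1 (Ccnd1), which drives entry into the cell cycle, was 42.5, 51.9 and 57.4 FPKM in Unt, 195, 242 and 266 in DOX and 24.8, 15.7 and 17.5 in D_MgHCF (2.19 ± 0.18 and −3.55 ± 0.18, limma adjusted p = 1.41e-05 and 2.39e-06). The secreted phosphoprotein Spp1 (osteopontin) rose with DOX by 2.65 ± 0.38 and the chromatin protein Hmga1 by 2.23 ± 0.11 (limma adjusted p = 0.000248 and 1.06e-05), and the protease inhibitor Timp1 fell with D_MgHCF by 2.27 (limma adjusted p = 6.90e-06). Under TPM the DOX differences were 0.84 for Ccnd1, 1.29 for Spp1 and 0.90 for Hmga1, and the D_MgHCF difference of Timp1 was −1.07. Hmga1 also fell with D_MgHCF, but its difference was −0.0093 under TPM. The fall of Cd44 with D_MgHCF did not pass under TPM (−0.17, limma adjusted p = 0.257), and under quantile normalization neither the fall of Spp1 nor the rise of Lif did (limma adjusted p = 0.129 and 0.212). The 3 that rose with D_MgHCF were Mmp9, the cytokine Lif and the EGF-like ligand Hbegf, which was 45.1, 49.6 and 10.1 FPKM against 5.11, 3.78 and 2.77 in DOX (2.63 ± 0.47, limma adjusted p = 0.000940).

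Of 5 genes known as EGR1 targets, 2 rose and 1 fell with DOX, and 3 rose and 1 fell with D_MgHCF against DOX. Tissue factor (F3) was 6.07, 5.30 and 4.70 FPKM in Unt, 1.43, 1.203 and 1.197 in DOX and 3.52, 2.30 and 2.97 in D_MgHCF, with the sign of the Egr1 differences in both comparisons (−1.48 ± 0.16 and 0.78 ± 0.16, limma adjusted p = 4.23e-05 and 0.00218; the second was 0.39 with limma adjusted p = 0.0758 under quantile normalization). The growth factor Pdgfb was 12.1, 12.9 and 14.2 FPKM in D_MgHCF against 2.42, 1.84 and 1.33 in DOX (2.31 ± 0.16, limma adjusted p = 4.51e-06), and Pdgfa rose by 1.60 ± 0.17 (limma adjusted p = 3.91e-05). Tgfb1 rose by 1.04 ± 0.20 with DOX and fell by 0.77 with D_MgHCF (limma adjusted p = 0.00149 and 0.00806), and under TPM these were −0.23 and 0.38.

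Limma called 0 of the 84 network genes for D_DXZ against DOX, and 0 of all 25044 genes. The smallest limma adjusted p among the 84 was 0.245. A lack of calls in this fit, whose spread is pooled over all groups, does not show a lack of change. The paper, with a negative binomial test, did report genes changed by doxorubicin that dexrazoxane significantly reversed. By limma's unadjusted p under 0.05, 10 were higher and 10 lower, and limma-voom on whole reads also called 0. Against Unt, the same lists gave 18 rises (background 15.9%) and 32 falls (18%) in D_DXZ and 29 rises (24.3%) and 20 falls (15.7%) in D_MgHCF, and D_MgHCF against D_DXZ gave 44 rises (29.4%) and 17 falls (19%).

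Fos, Jun and Egr1 served to look for genes of the same pattern, by Pearson correlation of log2(FPKM + 1) over the 12 libraries among 6879 genes averaging at least 5 FPKM; the libraries share 4 groups, so r describes these groups and carries no p. Closest to Fos were the magnesium transporter gene Slc41a1 (r = 0.988), Cdr2 (0.985) and Fam192a (0.985). Slc41a1 averaged 11.6 FPKM in Unt, 10.3 in DOX, 9.46 in D_DXZ and 32.3 in D_MgHCF. Closest to Jun were Mapk14 (r = 0.989), Tbc1d20 (0.982) and Kctd10 (0.982). Closest to Egr1 were Rnd3 (r = 0.987), Fbxl19 (0.979) and Cited2 (0.975); Rnd3 averaged 18.6 FPKM in Unt, 2.38 in DOX, 5.21 in D_DXZ and 20.1 in D_MgHCF.

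Most members had a compact build, which the choice of genes did not use. Their main coding transcripts had 1 exon for Jun, Junb and Jund, 2 for the EGR genes and 4 for the FOS genes, beside a median of 8 over 15994 coding genes tested. Transcribed spans ran from 1668 bases for Jund to 22042 for Fosl2, beside a median span of 20314.5 bases. Fosl2 was thus above the median, and the other 9 spanned at most 8400 bases, as 25.3% of the coding genes tested did.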

How the data were processed

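RNA of H9c2 cells was sequenced by the authors after poly(A) selection with a NEBNext Ultra kit, which is not stated to keep strand. The deposited file gives FPKM per gene for 12 libraries; the submitters' processing notes name HISAT2 2.0.5 and GRCm38/mm10, and the counter and annotation release are not given in the sources used here. Whole reads were recovered from 100% of the deposited FPKM values (tolerance 0.05 of a read), and the FPKM carried median-ratio scaling.

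Groups came from the labels. Limma 3.58.1 (R 4.3.3; lmFit, eBayes with trend) was fitted to log2(FPKM + 1) with all 12 libraries in 1 model of 4 groups, for 25044 genes whose FPKM exceeded 0 in 3 or more libraries, and p-values were adjusted over all of them and called under 0.05. Since the unit is FPKM, this log-scale test was used; limma-voom on the recovered reads was an alternative. The log-scale test, not limma-voom, was also run on simulated data in which all libraries had the same spread setting. The members and gene lists were chosen with earlier results of these data known, so members received no p. For the same reason the p-values and shares of the listed genes are a description. Groups "not overlapping" means that all 3 libraries of one lay above all 3 of the other.

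Named genes were the 10 members; from each list, up to 3 rises and 3 falls in each of 3 comparisons (doxorubicin against untreated, and either addition against doxorubicin) that were called, reached 1 FPKM on average where higher, and did not overlap; and 3 genes each closest to Fos, Jun and Egr1. Some genes this rule picks are not reported here. Mmp9 and Cd44 were named to complete counts, after their values were seen. Alternatives were a pseudocount of 0.1, an FPKM filter of 1 or none, TPM, quantile and summed-read scaling, a replicate block, fits of 2 groups only and leaving out each library. Transcripts sharing at least 150 bases at 95% identity with a member were found with BLAST 2.17.0.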

Additional observations from a re-analysis of the deposited data

How the results depend on the processing

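Scaling moved the counts most. Under TPM, 1 member was above Unt in DOX; network genes gave 7 rises and 58 falls for DOX against Unt, 7 and 56 for D_DXZ against Unt, 7 falls for D_MgHCF against DOX and 8 falls for D_MgHCF against D_DXZ. With summed reads these were 8 and 52, 8 and 50, 10 and 9. TPM and summed-read scaling move the median gene itself, by the amounts given with the library depths. Quantile normalization left 1 member above DOX in D_DXZ and 4 above D_DXZ in D_MgHCF; the cause was not tested. An unadjusted p under 0.05 gave 10 rises and 10 falls for D_DXZ against DOX. TPM and summed reads reversed Nab1 (−0.68 and −0.27) and Elk3 (−0.77 and −0.34) for DOX against Unt and Tgfb1 (0.38 and 0.13) for D_MgHCF against DOX; TPM alone reversed Rps6ka1 (−0.13), Arc (−0.030) and Tgfb1 (−0.23) for DOX against Unt, and Nab1 (0.21) and Crtc1 (0.039) for D_MgHCF against DOX.

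Leaving out 1 library gave 2 to 4 members above and 0 to 1 below DOX in D_DXZ, and 7 to 8 above DOX in D_MgHCF. Network genes gave 42 to 54 rises and 15 to 18 falls for D_MgHCF against DOX, and 17 to 23 and 27 to 37 for DOX against Unt. The fit shares its spread over all groups, so leaving out D_MgHCF replicate 3 also moved calls between DOX and Unt. Other immediate early genes then gave 2 rises and 11 falls there, in place of 1 and 9. Same-numbered libraries of different groups were not treated as pairs in the main model. Of 18 such pairs 2 had deviations correlated over 0.1 (r from −0.31 to 0.31), and 6 of 12 libraries correlated best with their own number. Those 2 were DOX with D_DXZ for replicate 1 (r = 0.31) and replicate 3 (r = 0.22). Pairs with different numbers spanned a like range. Their r ran from −0.31 (DOX replicate 1 with D_DXZ replicate 3) to 0.26 (D_DXZ replicate 1 with D_MgHCF replicate 3). The values do not settle whether libraries of these groups were paired. A replicate block gave 18 rises and 31 falls for DOX against Unt and 48 and 16 for D_MgHCF against DOX. Limma-voom for the members' differences was chosen after seeing the data. Members with few reads (Fos, Fosb, Jund, Egr3 outside D_MgHCF) are limited by depth.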
